A study of Mus musculus with 52 samples.

Results

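The genes Slco1c1, Slco1a4, Slco2b1 and Slc22a8, which encode transporters of organic anions and thyroid hormones, were followed through every RNA library of a study of brain and pituitary endothelial cells (ECs). They were taken as a list by name, 4 of the 49509 genes in the expression tables, and all 4 passed the filter on low counts among the 17900 genes tested in the 12 EC libraries from sorted cells. In the GRCm38 annotation, Slco1c1 (ENSMUSG00000030235) lies on the plus strand at chr6:141524368-141570177 and Slco1a4 (ENSMUSG00000030237) on the minus strand at chr6:141805440-141856199. Slco2b1 (ENSMUSG00000030737) lies on the minus strand at chr7:99657804-99711340, and Slc22a8 (ENSMUSG00000063796) on the plus strand at chr19:8591254-8611835. Slco1a4 sits in a cluster of close Slco1a and Slco1b relatives, so that reads may have been split among them and its values carry that uncertainty.

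The Slco genes encode organic anion transporting polypeptides, which carry steroid conjugates, thyroid hormones, bile salts and drugs across the plasma membrane. Slco1c1 encodes a high-affinity thyroxine transporter of brain capillaries and choroid plexus epithelium, Slco1a4 a broad-specificity organic anion transporter of brain capillaries, and Slco2b1 a carrier of steroid sulphates and other anions that microglia and macrophages also express. Slc22a8 encodes the organic anion transporter OAT3, which is known from kidney tubules, choroid plexus and the brain capillary wall. In the brain, these proteins belong to the blood-brain barrier, a set of EC properties that depends on beta-catenin signaling, whereas capillaries of the pituitary and choroid plexus are fenestrated and leaky.

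The study asked how far beta-catenin signaling sets the barrier program, and held 52 mouse samples in 26 groups of 2 biological replicates, all male. Sorted cells gave 24 RNA libraries: GFP-positive cells (ECs) and GFP-negative cells (all other sorted cells) of cerebellum, anterior pituitary (AP) and posterior pituitary (PP). The WT animals carried Tie2-GFP, an EC reporter, alone, and the stabilized animals carried Tie2-GFP, Pdgfb-CreER and BcatEx3fl, an allele whose beta-catenin escapes degradation once the EC-directed Cre removes exon 3. They received 100 µg of 4-hydroxytamoxifen (4HT) at postnatal day 10. Stabilized and WT sorted cells therefore differed in Cre and 4HT as well as in beta-catenin, and these cannot be told apart. Each pituitary replicate pooled 20 to 30 mice aged 30 to 90 days. RiboTag gave 16 further libraries from cortex and choroid plexus (CP) at 6 to 8 weeks, with an epitope-tagged ribosomal protein that Cre switches on in ECs: bound RNA (precipitated ribosomes) and input RNA (whole tissue). There, WT animals carried RiboTag and Pdgfb-CreER and stabilized animals also BcatEx3fl, both had received 4HT, and CP from 3 to 4 animals were pooled. Input was an aliquot of the tissue homogenate, and GFP-positive and GFP-negative cells were sorted from the same dissociated tissue. Both lobes were dissected from the same pituitaries. Libraries of these fractions and lobes therefore share animals and were fitted as independent. Another 12 libraries were ATAC-seq of GFP-positive cells, which maps accessible chromatin. Recombination is mosaic from cell to cell, and the gene-level counts used here do not resolve loss of exon 3.

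Several libraries need to be named before the values. The labels of the stabilized AP GFP-positive replicate 2 conflict, giving anterior pituitary in its title and source and posterior pituitary as its tissue. It was taken as anterior, and values without it are given beside the stabilized AP results. Endothelial markers summed to 5181 to 13128 CPM (counts divided by the library total and scaled to a common size) in the 12 GFP-positive and 17.0 to 94.1 CPM in the 12 GFP-negative libraries. The posterior pituitary GFP-negative libraries held pituitary endocrine markers at 47090.2 to 90022 CPM, and the anterior ones at 35231 to 66201 CPM. Choroid plexus epithelial markers summed to 6261 CPM in WT cerebellum GFP-negative replicate 2 and to 186 CPM in replicate 1. Genes of effective length under 50 took 31.3% to 36.1% of TPM, a level scaled for transcript length and library total, in the 4 WT cortex RiboTag libraries and 68.1% to 75.3% in the other 12. Comparisons of WT cortex with stabilized cortex or with CP cannot be told apart from this difference in library composition. Levels are therefore given as CPM after TMM normalization, within the 24 sorted or within the 16 RiboTag libraries. TPM is used to compare genes in 1 library, to count markers above 1 TPM and to rank genes of similar pattern, the last with this limit. It also gives transcript shares and stands beside CPM for Slco2b1 in PP ECs. Total estimated counts ran from 12157485 to 37529274 in sorted and from 6409013 to 21399125 in RiboTag libraries.

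Accessible chromatin around the genes is shown as 5 windows of 201 bases. They lie around ATAC-seq peak summits and were read from GRCm38 on the strand of the gene, 5′ to 3′. They cover the promoter peak of Slco1c1, 3 of the 6 Slco1a4 peaks that carry letters of the TCF/LEF motif, and the Slco2b1 inner promoter, where stabilized pituitary ECs had a peak and WT pituitary ECs had none. Capitals mark CTTTGAA or CTTTGAT on either strand (TTCAAAG or ATCAAAG in reverse), the letters of the motif that the DNA-binding partners of beta-catenin recognise.
Slco1c1 promoter, chr6:141524076-141524276, plus strand, summit at base -192 from the gene start: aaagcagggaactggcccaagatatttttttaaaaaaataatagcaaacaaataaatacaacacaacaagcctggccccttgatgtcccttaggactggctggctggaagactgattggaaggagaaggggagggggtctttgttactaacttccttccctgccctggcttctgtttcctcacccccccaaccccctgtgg
Slco1a4 intron, chr6:141827818-141828018, minus strand, summit at base 28281 from the gene start: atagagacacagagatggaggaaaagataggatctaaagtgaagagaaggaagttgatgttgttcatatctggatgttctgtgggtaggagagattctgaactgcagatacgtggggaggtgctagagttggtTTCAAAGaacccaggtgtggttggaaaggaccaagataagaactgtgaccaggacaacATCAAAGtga
Slco1a4 intron, chr6:141845821-141846021, minus strand, summit at base -453 from the start of transcript ENSMUST00000032364: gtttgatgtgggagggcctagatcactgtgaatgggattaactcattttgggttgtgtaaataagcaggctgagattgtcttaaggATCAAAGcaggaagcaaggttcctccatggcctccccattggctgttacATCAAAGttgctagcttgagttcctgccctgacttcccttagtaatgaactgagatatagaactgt
Slco1a4 upstream, chr6:141889114-141889314, minus strand, summit at base -33015 from the gene start: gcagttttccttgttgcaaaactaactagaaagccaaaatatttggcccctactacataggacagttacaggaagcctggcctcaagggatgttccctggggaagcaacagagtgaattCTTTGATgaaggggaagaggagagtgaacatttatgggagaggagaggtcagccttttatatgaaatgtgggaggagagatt
Slco2b1 inner promoter, chr7:99706789-99706989, minus strand, summit at base 272 from the start of transcript ENSMUST00000107088: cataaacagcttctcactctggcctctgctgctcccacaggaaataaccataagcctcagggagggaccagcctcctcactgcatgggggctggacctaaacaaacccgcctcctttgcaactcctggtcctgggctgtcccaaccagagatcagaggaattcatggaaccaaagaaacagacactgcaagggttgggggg

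In WT cerebellum ECs all 4 transporters were abundant, with Slco1c1 the highest. Per length, Slco1c1 reached 1679.9 and 1345 TPM in the 2 libraries and Slco1a4 557 and 698 TPM. Slc22a8 followed with 158 and 168 TPM, and Slco2b1 was lowest with 47.3 and 55.2 TPM. This order of levels was the same in both WT cerebellum EC libraries. Erythrocyte markers summed to 31812 CPM in replicate 1 and 4250 CPM in replicate 2, and the CPM of all 4 genes was lower in replicate 1; the part of these markers in that difference was not tested.

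The same genes were far lower in WT pituitary ECs. Slco1c1, the thyroxine transporter, stood at 3716 and 4755 CPM in cerebellum, at 0 and 0.0305 CPM in AP (0 and 1 estimated counts) and at 3.30 and 3.52 CPM in PP. Slco1a4 stood at 2179.9 and 2416 CPM in cerebellum, 5.68 and 4.09 CPM in AP and 37.9 and 55.6 CPM in PP. Libraries of the 3 tissues did not overlap for either gene, and PP lay between AP and cerebellum. Slco2b1 gave 175 and 317 CPM in cerebellum against 8.75 and 15.0 CPM in AP and 55.4 and 42.0 CPM in PP, in the same order but over a narrower range. Slc22a8 gave 818 and 1171 CPM in cerebellum, 7.5 and 8.08 CPM in AP and 0.36 and 0 CPM in PP, so that here PP was the lowest.

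All 4 genes passed the test as higher in WT cerebellum than in WT AP ECs, where 3.0% of all genes tested were higher (adjusted p under 0.05 and at least 2-fold, edgeR quasi-likelihood test with Benjamini-Hochberg adjustment). Slco1a4 was 469.9-fold higher (log2 8.88 ± 0.60 SE, adjusted p = 2.64e-06), Slc22a8 128-fold (7.0 ± 0.60, adjusted p = 1.54e-05) and Slco2b1 20.8-fold (4.38 ± 0.46, adjusted p = 7.27e-05). For Slco1c1, 261543 against 1 estimated counts gave a ratio of 260835 (95% counting interval 46814 to 10302489), with an adjusted p of 1.44e-08. Against WT PP ECs all 4 were again higher, where 2.3% of all genes were: Slco1c1 1238-fold (10.27 ± 0.44, adjusted p = 2.2e-07), Slco1a4 48.9-fold (5.61 ± 0.51, adjusted p = 4.38e-05) and Slco2b1 5.04-fold (2.33 ± 0.42, adjusted p = 0.00535). Slc22a8 had 60965 against 12 counts, a ratio of 3800.1 (2175 to 7355; adjusted p = 3.65e-06). The Slco2b1 difference from PP was not called once transcript length was taken into account (log2 0.61, adjusted p = 0.703). Beside these differences, mural markers summed to 3354 and 3087 CPM in WT cerebellum, 801 and 918 CPM in AP and 573 and 551 CPM in PP ECs, and endothelial markers to 5603 and 6998, 9245 and 10042, and 12019.8 and 13128 CPM. The part of mural cells in the transporter values was not tested.

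**Figure D1:**
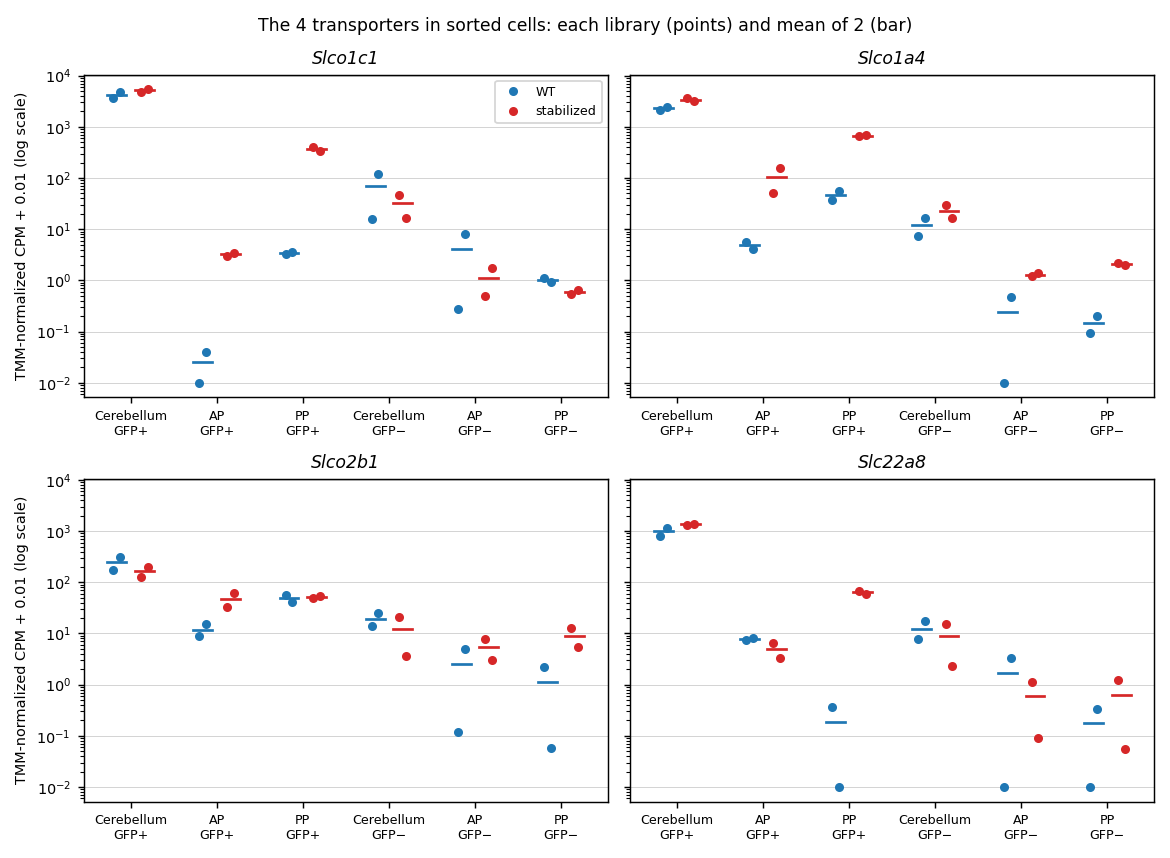
TMM-normalized CPM (+ 0.01, log scale) of the 4 genes in the 24 sorted RNA libraries; each point is 1 library, each bar the mean of 2, blue WT and red stabilized. Cerebellum ECs sit highest for every gene, and in PP ECs the stabilized libraries of Slco1c1 (398 and 332), Slco1a4 (659 and 684) and Slc22a8 (68.8 and 58.2) lie above the WT libraries, whereas those of Slco2b1 do not.

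The pituitary lobes also differed from each other. In WT ECs, 3 of the 4 genes were higher in PP than in AP, where 0.654% of all genes were, and Slc22a8 was lower, where 0.341% of all genes were. Slco1c1 had 170 against 1 counts (ratio 227, 40.1 to 9005; adjusted p = 3.46e-05), and Slco1a4 was 9.60-fold higher (log2 3.26 ± 0.47, adjusted p = 0.00435). Slco2b1 was 4.13-fold higher (2.05 ± 0.42, adjusted p = 0.0368), a call lost without WT AP replicate 1 (1.70, adjusted p = 0.186). Slc22a8 had 12 counts in PP against 524 in AP, a ratio of 32.8 (18.6 to 63.8; adjusted p = 0.00138). With only these 4 libraries in the fit none of the 4 differences was called, with adjusted p from 0.0779 to 0.576.

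EC enrichment was tested as GFP-positive over GFP-negative cells. In WT cerebellum 3 genes were higher in ECs, where 4.46% of all genes were: Slco1a4 (log2 7.57 ± 0.88, adjusted p = 1.56e-05), Slc22a8 (6.32 ± 1.57, adjusted p = 0.0115) and Slco1c1 (5.94 ± 1.12, adjusted p = 0.00159). Slco2b1 gave 3.65 ± 1.22 and did not pass (adjusted p = 0.0603), but was called without GFP-positive replicate 1 (4.12, adjusted p = 0.0391), with a replicate block within each preparation (3.65, adjusted p = 0.0493) and by DESeq2 (3.63, adjusted p = 0.0127). GFP-negative replicate 2, the library with choroid plexus epithelial markers, held Slco1c1 at 122 CPM against 15.7 CPM in replicate 1, and without it the Slco1c1 enrichment was 8.18, that of Slco1a4 8.40 and that of Slc22a8 7.12. In stabilized cerebellum all 4 were enriched, where 7.27% of all genes were, with log2 values of 7.32, 7.21, 3.74 and 7.25 for Slco1c1, Slco1a4, Slco2b1 and Slc22a8. The Slco2b1 call there was lost without GFP-negative replicate 2 (3.06, adjusted p = 0.171) or without GFP-positive replicate 2 (3.48, adjusted p = 0.0612).

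In the pituitary the enrichment depended on the gene. Slco1a4 was higher in ECs of both WT lobes: 20.5-fold in AP (log2 4.36 ± 0.82, adjusted p = 0.00139), where it was the 1 gene of the 4 among 5.46% of all genes, and in PP with 2213 against 7 counts, a ratio of 364 (177 to 907; adjusted p = 8.8e-06). The WT AP value was 3.5 without GFP-negative replicate 1, and replicate 1 itself held 0 counts of Slco1a4. Slco2b1 was also higher in WT PP ECs (5.40 ± 1.34, adjusted p = 0.00881; 4.61 without GFP-negative replicate 2, which held 1 count), so that 2 of the 4 genes were, against 7.08% of all genes. Slco1c1 was lower in WT AP ECs than in GFP-negative cells (1 against 298 counts, ratio 289.6, 51.6 to 11475; adjusted p = 0.00254), as were 5.87% of all genes. That call rested on GFP-negative replicate 2, which held 7.95 CPM against 0.269 CPM in replicate 1, and without it the difference was not called (adjusted p = 0.0894). Slco2b1 and Slc22a8 were not called in WT AP (2.21 and 2.22). GFP-negative replicate 1 held 4 and 0 counts of these genes and replicate 2 held 181 and 121, so that the comparison without replicate 2, although called, gives no size. In stabilized AP ECs edgeR called Slco1a4 (6.34 ± 0.84, adjusted p = 7.64e-05; 5.14% of all genes; 5.32 and 7.07 as either GFP-positive library was left out), and DESeq2 also called Slco2b1 (3.07, adjusted p = 0.0492, against an adjusted p of 0.133 in edgeR). Stabilized PP ECs were enriched for Slco1c1 (9.26 ± 1.32), Slco1a4 (8.35 ± 0.91) and Slc22a8 (6.63 ± 1.64; 5.73 without GFP-negative replicate 2, which held 1 count), with 5.48% of all genes called.

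In PP ECs 3 of the 4 transporters rose with stabilized beta-catenin. Slco1c1 went from 3.30 and 3.52 CPM in WT to 398 and 332 CPM in stabilized libraries, a 105-fold rise (log2 6.72 ± 0.38, adjusted p = 2.6e-06). Slco1a4 went from 37.9 and 55.6 CPM to 659 and 684 CPM, 14.1-fold (3.82 ± 0.47, adjusted p = 0.0012). Slc22a8, at 12 and 0 counts in WT, reached 68.8 and 58.2 CPM, and 2657 against 12 counts gave a ratio of 218 (124 to 422; adjusted p = 5.58e-05). Stabilized and WT libraries did not overlap for these 3 genes. Slco2b1 overlapped in CPM, with 55.4 and 42.0 CPM in WT and 49.9 and 53.0 CPM in stabilized libraries (log2 0.05 ± 0.40, adjusted p = 1). With transcript length taken into account its value turned to -2.76 (adjusted p = 0.0695, not called), and in TPM the libraries did not overlap, at 78.3 and 17.8 in WT and 3.41 and 3.74 in stabilized ECs. Of all genes, 1.26% were higher. The fitted Slc22a8 value was 7.42 without WT replicate 2 and has no size without WT replicate 1, which held all 12 counts. The Slco1a4 call was lost with transcript length taken into account (3.09, adjusted p = 0.123).

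In AP ECs 2 of the 4 rose, where 0.441% of all genes did, from lower levels. Slco1c1 went from 0 and 1 counts in WT to 86 and 84 counts in stabilized libraries, a ratio of 216 (38.3 to 8594; adjusted p = 2.67e-05), but its level of 2.98 and 3.49 CPM lay near that of WT PP ECs. Slco1a4 went from 5.68 and 4.09 CPM to 49.9 and 158 CPM, 21.0-fold (log2 4.39 ± 0.49, adjusted p = 0.000931). Without the library of conflicting labels, replicate 2, the values were 3.35 for Slco1a4 and 7.26 for Slco1c1, both called, and without replicate 1 Slco1a4 gave 5.01. Slco2b1 gave 8.75 and 15.0 CPM in WT and 33.1 and 62.0 CPM in stabilized libraries, which did not overlap but missed the threshold (1.99 ± 0.42, adjusted p = 0.0703), and it was called without stabilized replicate 1 (2.39, adjusted p = 0.000127) and not without replicate 2 (1.48, adjusted p = 0.104). The Slco2b1 difference was also called by DESeq2 (2.0, adjusted p = 0.000802), with a replicate block (1.98, adjusted p = 0.0196) and without the filter on low counts (2.0, adjusted p = 8.03e-06). It was not called with only the AP libraries in the fit (adjusted p = 0.201) or with transcript length taken into account (0.58, adjusted p = 0.902). Slc22a8 gave 7.5 and 8.08 CPM in WT and 6.51 and 3.28 CPM in stabilized libraries (-0.68 ± 0.48, adjusted p = 0.756; -0.26 without replicate 2). With only the AP libraries in the fit neither rise was called (adjusted p = 0.202 for Slco1c1 and 0.0816 for Slco1a4), nor was that of Slco1a4 with transcript length taken into account (3.47, adjusted p = 0.188).

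The response of Slc22a8 differed between the lobes. The difference of the log2 changes, PP minus AP, was 8.80 ± 0.82 (adjusted p = 0.00186), 1 of the 4 genes, with 0.0559% of all genes higher in this contrast. It was 8.09 without WT PP replicate 2, 9.40 without stabilized AP replicate 1 and 8.41 without replicate 2, the library of conflicting labels. The fitted size rests on the 12 and 0 counts of Slc22a8 in WT PP ECs and depends on edgeR's prior count. For Slco1c1 (-0.65 ± 0.62, adjusted p = 0.922), whose value rests on 1 count in WT AP ECs, and Slco1a4 (-0.57 ± 0.60, adjusted p = 0.876; 0.49 without stabilized AP replicate 2) no difference between lobes was called. Slco2b1 gave -1.94 ± 0.57 (unadjusted p = 0.00522, adjusted p = 0.312), -2.31 with an adjusted p of 0.0293 without stabilized AP replicate 1 and -1.40 with an adjusted p of 0.569 without replicate 2. With transcript length taken into account the Slco2b1 difference was -3.34 (adjusted p = 0.36), and without the filter on low counts it was called (-1.92, adjusted p = 0.0134).

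Stabilized pituitary ECs lay below WT cerebellum ECs for every one of the 4 genes. In stabilized PP the shortfall was 11.8-fold for Slco1c1 (log2 -3.55 ± 0.32, adjusted p = 8.65e-05), 15.9-fold for Slc22a8 (-3.99 ± 0.52, adjusted p = 0.000982), 4.85-fold for Slco2b1 (-2.28 ± 0.42, adjusted p = 0.00933) and 3.46-fold for Slco1a4 (-1.79 ± 0.43, adjusted p = 0.0427), with 1.54% of all genes lower. The Slco1a4 call was lost without either stabilized PP library (-1.77, adjusted p = 0.127, and -1.82, adjusted p = 0.0894). In stabilized AP the shortfall was 1322-fold for Slco1c1, 204-fold for Slc22a8, 22.4-fold for Slco1a4 and 5.24-fold for Slco2b1, all called, with 1.91% of all genes lower. Leaving out either stabilized AP library moved the Slco1a4 value of -4.48 to -3.87 or -5.53. Without replicate 2, the library of conflicting labels, Slco1c1 gave -10.47, Slc22a8 -7.25 and Slco2b1 -2.89, all called. With transcript length taken into account, calls were lost for Slco1a4 in stabilized PP (-1.5, adjusted p = 0.514) and Slco2b1 in stabilized AP (-2.1, adjusted p = 0.143). In order of mean CPM, Slco1c1 ran from stabilized cerebellum (5159 ± 397 SD, n = 2) and WT cerebellum (4235 ± 735) to stabilized PP (365 ± 46.7), WT PP (3.41 ± 0.154), stabilized AP (3.23 ± 0.361) and WT AP (0.0152 ± 0.0216), and its WT PP and stabilized AP libraries overlapped. Slco1a4 ran in the same order except that stabilized AP (104 ± 76.3) stood above WT PP (46.7 ± 12.5), again with overlapping libraries.

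Markers of other cells moved with genotype in these sorted libraries. Microglial markers summed to 511 and 358 CPM in stabilized and 64.8 and 60.4 CPM in WT PP ECs, with 8 and 6 of 8 markers above 1 TPM in stabilized and 1 of 8 in each WT library. In AP ECs they summed to 188 and 415 CPM in stabilized and 50.1 and 29.7 CPM in WT libraries, with 6 and 8 of 8 markers against 2 and 2. Macrophage markers summed to 139.6 and 66.6 CPM in stabilized and 6.69 and 5.16 CPM in WT PP ECs, with 3 and 3 of 6 markers above 1 TPM in stabilized and 0 and 0 in WT libraries. In AP ECs they summed to 171 and 193 CPM in stabilized and 121 and 130.2 CPM in WT libraries, with 4 and 3 of 6 markers against 2 and 3, and Cd163 was at 0 in all but 1 of the pituitary EC libraries. Microglia are also known to express Slco2b1, which stood higher in both stabilized AP libraries without passing the test. In PP ECs, where microglial markers also summed higher, Slco2b1 gave 55.4 and 42.0 CPM in WT and 49.9 and 53.0 CPM in stabilized libraries. The part of these markers in the transporter values was not tested. Choroid plexus epithelial markers summed to 1805 and 2250.4 CPM in stabilized and 135 and 165 CPM in WT PP ECs. Aqp1, a water channel, made 1719 and 2144 CPM of the stabilized sums. Of the 8 markers, 3 and 5 were above 1 TPM in stabilized and 4 and 2 in WT PP libraries. Kcnj13, a potassium channel, was the 1 marker at 0 in both stabilized PP libraries, and it was at 0 in all 8 pituitary EC libraries. In AP ECs the sum of the 8 markers was 219 and 388 CPM in stabilized and 18.3 and 13.1 CPM in WT libraries, with 4 and 4 markers above 1 TPM against 2 and 2. The part of these epithelial markers in the transporter values was not tested. Pituitary endocrine markers summed to 322 and 755 CPM in stabilized and 2338 and 434 CPM in WT PP ECs. Endothelial markers summed to 6179.7 and 6817 CPM in stabilized and 12019.8 and 13128 CPM in WT PP ECs. The part of this difference in the transporter values was not tested. The share of recombined cells and the RNA per cell were not measured in these bulk samples. Direct Wnt target genes summed to 988 and 1189 CPM in stabilized against 52.1 and 50.6 CPM in WT PP ECs and to 248 and 419.8 against 98.6 and 121 CPM in AP ECs.

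In cerebellum ECs no member passed the test for stabilized against WT. Slco1c1 gave 4878 and 5440.2 CPM in stabilized libraries (log2 0.27 ± 0.29, adjusted p = 0.815), Slco1a4 3630.3 and 3169 CPM (0.55 ± 0.42, adjusted p = 0.671), Slco2b1 129 and 197 CPM (-0.61 ± 0.40, adjusted p = 0.588) and Slc22a8 1307 and 1399.9 CPM (0.42 ± 0.46, adjusted p = 0.811). Libraries of Slco1c1, Slco1a4 and Slc22a8 lay above those of WT without overlap, and those of Slco2b1 overlapped. None of the 4 had an unadjusted p under 0.05, DESeq2 also called 0, and 0.648% of all genes were called in either direction. Wnt target genes summed to 3370.4 and 2588 CPM in these stabilized and 1519.6 and 1603 CPM in the WT libraries.

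**Figure D2:**
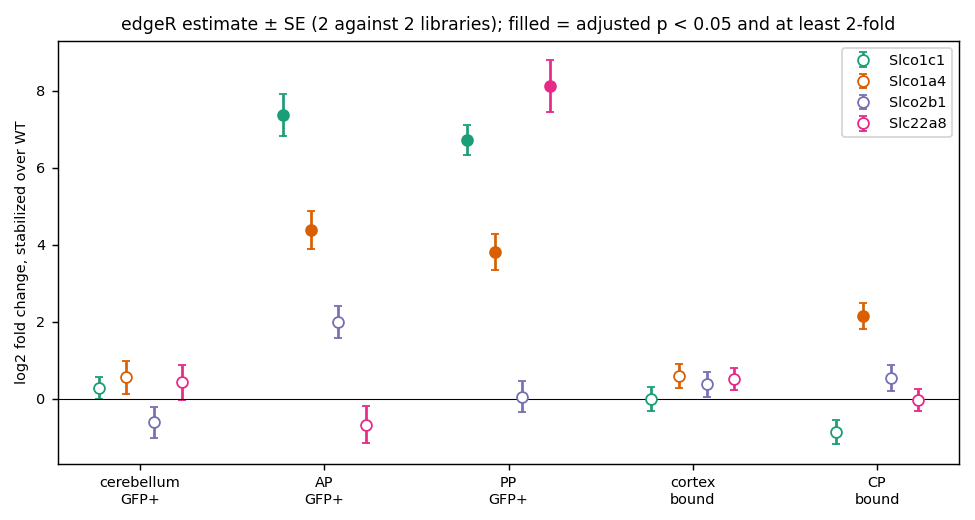
Log2 fold change of each gene, stabilized over WT, with its standard error (edgeR, 2 against 2 libraries), in sorted ECs of 3 tissues and in bound RNA of cortex and CP; filled points were called. Slco1a4 was called in AP, PP and CP, Slco1c1 in AP and PP and Slc22a8 in PP, and points of cerebellum and cortex lie between -0.61 and 0.59. The points of Slco1c1 in AP and Slc22a8 in PP rest on few WT counts and depend on edgeR's prior count.

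GFP-negative cells gave the background. No member was called for stabilized against WT in cerebellum, AP or PP, where 0.76%, 0.0408% and 0.133% of all genes were called in either direction. Among the 12 values, the 1 with an unadjusted p under 0.05 was that of Slco1a4 in PP, which DESeq2 called and edgeR did not: 2.13 and 1.97 CPM in stabilized against 0.0824 and 0.189 CPM in WT (94 against 7 counts, ratio 13.2, 6.15 to 33.7; adjusted p = 0.432). In the same PP GFP-negative libraries mural markers summed to 341 and 141 CPM in stabilized against 41.7 and 19.2 CPM in WT, leptomeningeal fibroblast markers to 1031 and 621 against 301 and 221 CPM, and erythrocyte markers to 2155 and 1023 against 111 and 1.7 CPM. Endothelial markers summed to 37.5 and 24.8 against 22.0 and 17.0 CPM, and the part of these cells in the Slco1a4 value was not tested. DESeq2 called 0 in cerebellum and AP. Slco1c1 lay at 0.543 and 0.642 CPM in stabilized PP GFP-negative cells, against 398 and 332 CPM in the ECs of the same tissue and genotype.

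RiboTag RNA gave the transporters in cortex and CP. In bound RNA of WT cortex, Slco1c1 stood at 565 and 303 CPM, Slco1a4 at 508 and 283 CPM, Slco2b1 at 261 and 152 CPM and Slc22a8 at 116 and 88.6 CPM. Replicate 1 was above replicate 2 for all 4 genes, and endothelial markers also summed higher in replicate 1 (1377 against 704 CPM). Over input RNA all 4 were higher, where 7.45% of all genes were: Slco1c1 10.6-fold (log2 3.41 ± 0.27), Slco1a4 23.8-fold (4.57 ± 0.28), Slco2b1 20.3-fold (4.34 ± 0.32) and Slc22a8 10.8-fold (3.44 ± 0.32), with adjusted p from 5.29e-07 to 8.69e-06. Without bound replicate 2 the first 3 values were 4.16, 5.31 and 5.05, and without input replicate 2 Slc22a8 gave 4.08. In stabilized cortex they were 26.8, 44.2, 36.7 and 17.5-fold higher in bound RNA, with 10.1% of all genes called. Microglial markers, 8 of 8 above 1 TPM in every bound library, summed to 4664 and 3628 CPM in bound against 192 and 186 CPM in input RNA of WT cortex and to 3778 and 3624 against 148 and 155 CPM in stabilized cortex. Their part in the bound values, those of Slco2b1 among them, was not tested.

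In CP the 4 genes separated. Only Slco2b1 was higher in bound than in input RNA of WT CP (51.6 and 70.2 against 7.76 and 8.20 CPM, 7.62-fold, log2 2.93 ± 0.32, adjusted p = 4.66e-05), with 8.35% of all genes called. Beside it, microglial markers summed to 273 and 329 CPM in bound against 70.0 and 78.9 CPM in input RNA of WT CP, and macrophage markers to 72.2 and 135 against 14.5 and 19.4 CPM. In stabilized CP these sums were 301 and 412 against 115 and 104 CPM and 75.5 and 93.0 against 24.3 and 17.0 CPM. Their part in the Slco2b1 values was not tested. Slco1c1 stood lower in bound than in input RNA there (213 and 223 against 356 and 382 CPM; -0.76 ± 0.25, adjusted p = 0.0472), short of 2-fold. In stabilized CP the same comparison gave 143 and 113 against 297 and 303 CPM, and Slco1c1 was called lower (-1.23 ± 0.25, adjusted p = 0.00344), as were 8.83% of all genes. Choroid plexus epithelial markers also summed lower in bound than in input RNA, at 9960.2 and 8001 against 33028 and 32175 CPM in stabilized CP and 20951 and 19657 against 34702 and 40207 CPM in WT CP, and their part in the Slco1c1 values was not tested. Slco1a4 had no bound excess in WT CP (70.2 and 87.0 against 76.0 and 75.0 CPM; 0.06 ± 0.25) and was 4.05-fold higher in bound RNA of stabilized CP (339 and 399 against 100 and 82.4 CPM; 2.02 ± 0.25, adjusted p = 0.000112). With Slco2b1, 2.78 ± 0.31, that made 2 of the 4 higher, against 9.18% of all genes. Slc22a8 was not called in either genotype (-0.35 ± 0.30 and -0.15 ± 0.30).

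Bound RNA of WT cortex exceeded that of WT CP for all 4 genes, where 15.8% of all genes were higher. The difference was 5.37-fold for Slco1a4 (log2 2.43 ± 0.34, adjusted p = 0.000717), 3.96-fold for Slc22a8 (1.98 ± 0.30, adjusted p = 0.001), 3.61-fold for Slco2b1 (1.85 ± 0.34, adjusted p = 0.00315) and 2.12-fold for Slco1c1 (1.09 ± 0.32, adjusted p = 0.0294). The Slco1c1 call was lost without WT cortex replicate 1 (0.50, adjusted p = 0.175) and without either CP replicate (0.95, adjusted p = 0.142, and 1.02, adjusted p = 0.116). Choroid plexus epithelial markers summed to 20951 and 19657 CPM in bound RNA of WT CP and to 101 and 103 CPM in that of WT cortex, and Slco1c1 is a gene of that epithelium. Microglial markers summed to 4664 and 3628 CPM in bound RNA of WT cortex and to 273 and 329 CPM in that of WT CP. The part of these cells' RNA in the bound values was not tested.

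In bound RNA of CP, Slco1a4 rose with stabilization and no other member was called. It went from 70.2 and 87.0 CPM in WT to 339 and 399 CPM in stabilized libraries, 4.40-fold (log2 2.14 ± 0.34, adjusted p = 0.0236), 1 of the 4 genes against 0.656% of all genes higher. The call was lost without WT CP replicate 1 (2.02, adjusted p = 0.0977) and with transcript length taken into account (1.83, adjusted p = 0.116). Slco1c1 went from 213 and 223 to 143 and 113 CPM and did not pass (-0.87 ± 0.32, unadjusted p = 0.0237, adjusted p = 0.277). Slco2b1 (51.6 and 70.2 against 114 and 75.3 CPM, 0.54 ± 0.33) and Slc22a8 (30.3 and 24.3 against 32.4 and 24.5 CPM, -0.04 ± 0.29) were not called. Beside these values, choroid plexus epithelial markers summed to 9960.2 and 8001 CPM in stabilized against 20951 and 19657 CPM in WT bound RNA, with 8 of 8 markers above 1 TPM in every library, and endothelial markers to 2869.6 and 2457 against 1639 and 2111 CPM. Their part in the Slco1a4 and Slco1c1 values was not tested.

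In bound RNA of cortex no member was called for stabilized against WT: 431 and 431 CPM for Slco1c1 (log2 -0.01 ± 0.32), 638 and 552 CPM for Slco1a4 (0.59 ± 0.32), 257 and 277 CPM for Slco2b1 (0.37 ± 0.33) and 164 and 125 CPM for Slc22a8 (0.51 ± 0.28). None had an unadjusted p under 0.05, DESeq2 called 0, and 6.31% of all genes were called in either direction. Slco1a4 was called without WT cortex replicate 1 (1.14, adjusted p = 0.0264). The response of CP minus that of cortex was called for none of the 4 (2.15% of all genes in either direction). Slco1a4 came nearest, with 1.55 ± 0.46 (unadjusted p = 0.00757, adjusted p = 0.126), was the 1 gene with an unadjusted p under 0.05 and was called by DESeq2. Leaving out WT cortex replicate 2 gave a called 2.01 for Slco1a4 (adjusted p = 0.0031), and leaving out replicate 1 a called -1.45 for Slco1c1 (adjusted p = 0.0346).

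**Figure D3:**
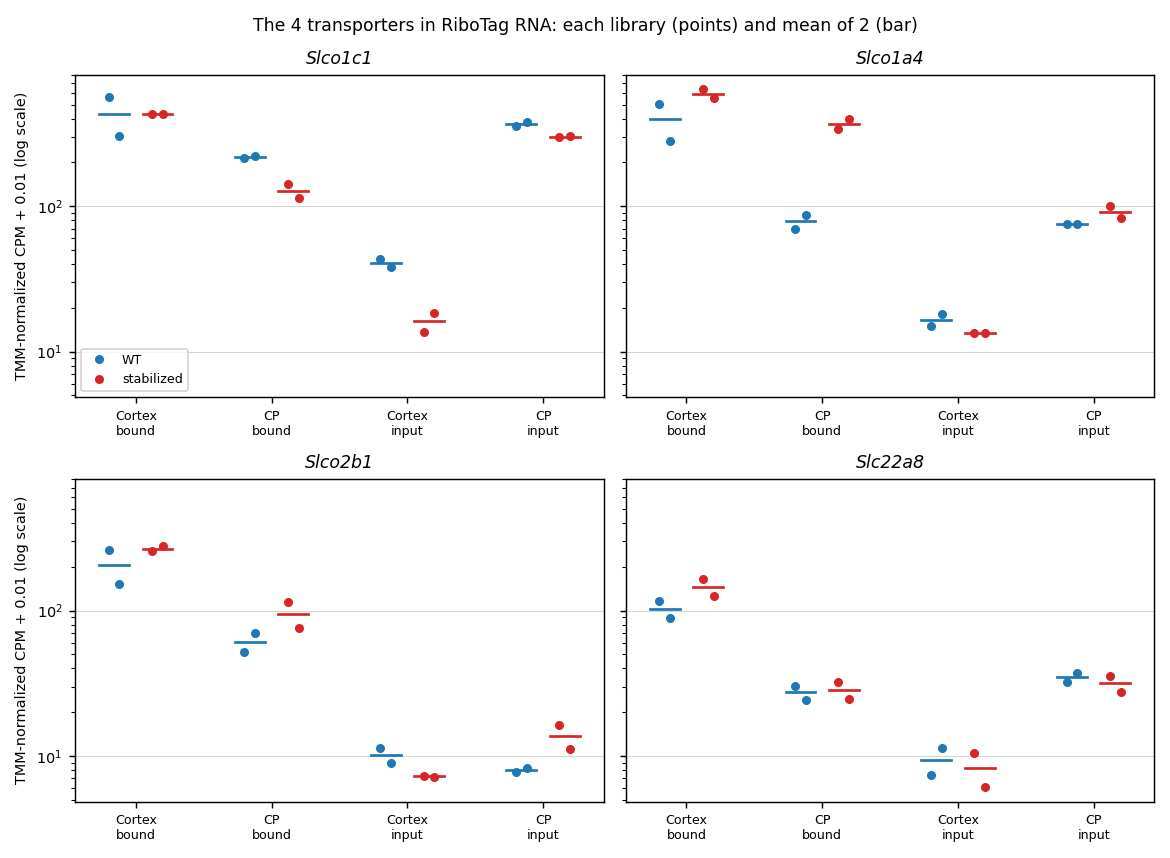
TMM-normalized CPM (+ 0.01, log scale) of the 4 genes in the 16 RiboTag libraries; each point is 1 library, each bar the mean of 2, blue WT and red stabilized. In CP bound RNA the stabilized libraries of Slco1a4 (339 and 399) lie above the WT libraries (70.2 and 87.0), and Slco1c1 is higher in CP input (297 to 382) than in CP bound RNA (113 to 223).

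Input RNA gave whole-tissue levels. Slco1c1, Slco1a4 and Slc22a8 were lower in WT cortex than in WT CP (log2 -3.31 ± 0.17, -2.32 ± 0.13 and -2.03 ± 0.28), 3 of the 4 genes against 26.5% of all genes. Choroid plexus epithelial markers summed to 226 and 217 CPM in WT cortex and 34702 and 40207 CPM in WT CP input, and their part in these differences was not tested. Slco2b1 was not called (11.4 and 8.92 against 7.76 and 8.20 CPM, 0.22 ± 0.24). In stabilized cortex input Slco1c1 was lower than in WT (13.7 and 18.4 against 43.4 and 38.4 CPM; -1.26 ± 0.16, adjusted p = 0.00193), 1 of the 4 against 3.36% of all genes. This difference cannot be told apart from the composition of the WT cortex libraries: transcript ENSMUST00000032362 took 100% and 99.5% of Slco1c1 TPM in stabilized cortex input and none in WT cortex input. No member was called in CP input (0.106% of all genes in either direction), where Slco2b1 had an unadjusted p of 0.0148 (0.77 ± 0.25) and DESeq2 called 0.

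Transcript assignments differed between libraries. Of Slco1c1, transcript ENSMUST00000204998, annotated as a target of nonsense-mediated decay, took 44.7% and 54.6% of TPM in WT cerebellum, 100% and 93.3% in WT PP, 43.1% and 36.2% in stabilized PP and 96.9% and 73.3% in stabilized AP ECs. The Slco2b1 transcripts under 1000 bases took 69.1% and 19.6% of that gene's TPM in WT AP ECs and 63.5% and 9.34% in WT PP ECs, but 5.56% and 15.4% in stabilized AP and 0% and 0% in stabilized PP ECs. The transcript that starts at the inner promoter shown above, ENSMUST00000107088, took 85.4% and 84.0% in stabilized AP and 100% and 78.0% in stabilized PP ECs, against 0% and 80.4% in WT AP and 36.5% and 90.7% in WT PP ECs. For Slco2b1 the replicates of each WT group differed more than the genotypes did, and no difference in transcript use was read from these values.

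The ATAC-seq peak lists held 40 regions within 50 kb of the 4 genes, of 66740 regions in all: 7 near Slco1c1, 13 near Slco1a4, 14 near Slco2b1 and 6 near Slc22a8. Some lie in other genes. Regions with summits at bases -38900 to -22300 from the Slco1c1 start lie within Pde3a, among them the Slco1c1 region gained in cerebellum. Those at bases 84365 to 85415 from the Slco2b1 start lie in exons of Tpbgl, and that at base 65297 from the Slc22a8 start within AC025794.1. A region was counted as gained where both stabilized and neither WT library had a peak, and as lost in the reverse case. Peaks in a library numbered from 20634 in a WT PP library to 45040 in a WT AP library, and from 28926 to 38583 in stabilized PP, so that gains in PP came with longer peak lists. Cerebellum lists were also longer in stabilized (33514 and 31669) than in WT libraries (26394 and 24020). The part of list length in the counts was not tested. Of the regions near the genes with a peak in both stabilized libraries, 5 of 7 (71.4%) were gained in PP against 28.1% of all such regions, 3 of 12 (25.0%) in AP against 7.77%, and 4 of 24 (16.7%) in cerebellum against 17.4%. Lost regions were 0 of 2 in PP against 3.07%, 0 of 8 in AP against 5.65% and 2 of 19 (10.5%) in cerebellum against 3.28%. The gained count was 12 in PP without stabilized replicate 1, 6 in AP without stabilized replicate 1 and 5 without WT replicate 2, and 7 in cerebellum without WT replicate 1.

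At the Slco1c1 promoter, whose window is given above, the peak (chr6:141523526-141524788) had fold enrichments (peak signal over local background) of 10.1 and 11.0 in the WT cerebellum libraries and 15.6 and 14.1 in the stabilized ones. It had no peak in any AP library or in WT PP, and 5.86 and 3.92 in stabilized PP ECs, where it was gained. At the Slc22a8 promoter the peak had 8.80 and 8.29 in the WT cerebellum libraries and 13.3 and 12.0 in the stabilized ones. It was absent from AP and WT PP and listed at 3.92 in stabilized PP replicate 2 only. Of the 4 genes, Slc22a8 had no gained or lost region in any of the 3 tissues.

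Slco1a4 had no peak within 50 kb in any of the 4 WT pituitary libraries and 8 in each WT cerebellum library. Its intron peak at chr6:141827290-141828418, listed at 7.71 and 7.28 in the WT cerebellum libraries and 10.2 and 9.02 in the stabilized ones, was gained in AP (5.61 and 4.42) and in PP (5.64 and 5.09). The upstream peak at chr6:141888753-141889748 was the strongest near the gene, with 14.3 and 13.3 in the WT cerebellum libraries and 16.2 and 15.6 in the stabilized ones. It was gained in PP (4.56 and 2.87) and present in AP replicate 2 alone (4.68). The intron peak at chr6:141845687-141846414 went from 3.95 and 3.97 to 10.7 and 11.0 in cerebellum ECs and was absent from all pituitary libraries. At the gene start itself (chr6:141855944-141856523), peaks of 7.08 and 3.31 in the WT cerebellum libraries and 5.39 and 4.72 in the stabilized ones stood beside 1 stabilized AP (4.88) and 1 stabilized PP library (3.53).

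Slco2b1 had peaks within the gene in WT AP ECs. The 1 peak of each WT PP library lay outside the gene, in an exon of Tpbgl. At the outermost Slco2b1 start (chr7:99711078-99711577) AP libraries had 4.58 and 8.27 in WT and 6.92 and 10.6 in stabilized ECs. Stabilized PP replicate 2 had 3.58, and no other PP or cerebellum library had a peak there. The inner promoter peak (chr7:99706400-99707462) was open in cerebellum (5.21 and 4.76 in WT, 9.07 and 8.53 in stabilized) and gained in both lobes, at 6.93 and 5.10 in AP and 4.23 and 4.02 in PP. An intron peak at chr7:99694106-99694829 was present in cerebellum and AP of both genotypes and gained in PP (4.34 and 4.18), and another at chr7:99680630-99681399 appeared in the 4 AP libraries only (6.11 to 14.1). The annotation gene Gm34280 overlaps the 2 Slco2b1 start regions and the first of these intron peaks.

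**Figure D4:**
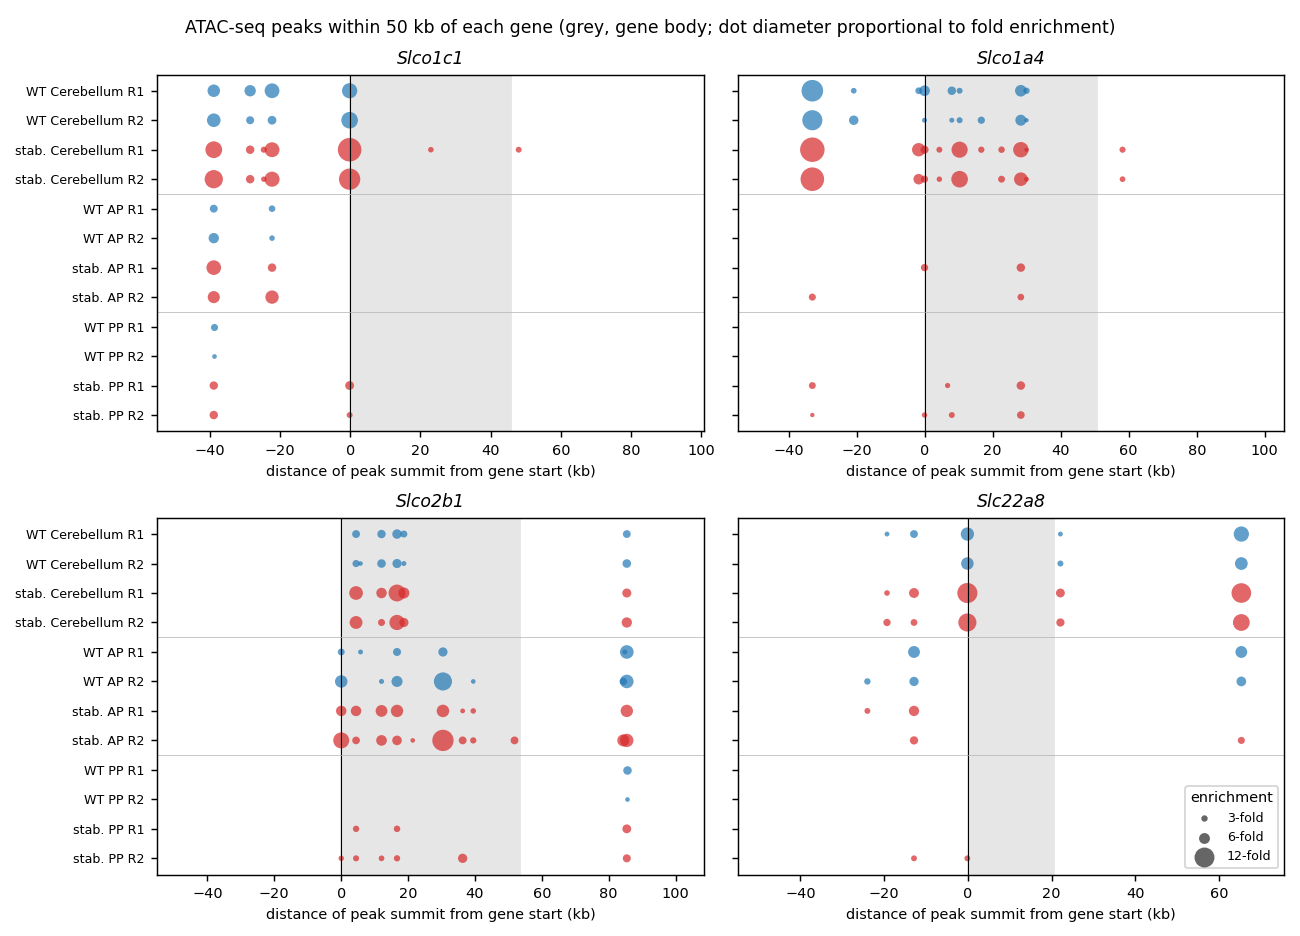
ATAC-seq peaks near each gene in the 12 libraries, at the distance of the peak summit from the gene start (kb) along the direction of transcription; dot diameter is proportional to fold enrichment, blue WT and red stabilized. Slco1a4 has 8 peaks in each WT cerebellum library, none in WT AP or WT PP and 2 to 4 in each stabilized pituitary library.

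The TCF/LEF letters stood in 9 of the 40 windows (22.5%), against 7.89% of all 66740. Of these 9, 6 belonged to Slco1a4, 2 to Slco2b1, 1 to Slc22a8 and none to Slco1c1. Among all regions gained in PP, AP and cerebellum the share was 15.5%, 22.2% and 12.8%. Both Slco1a4 regions gained in the pituitary held the letters in their windows. In the Slco1c1 promoter peak 2 matches lay outside the window but within the peak, as did 2 in the Slc22a8 promoter peak, and the Slco2b1 inner promoter peak held none over its whole length. Promoters of the 4 genes in RefSeq (GRCm38.p6, 250 bases before to 50 bases after each start) held them in 0 of 6, against 8.65% of 32851 promoters. A match of letters is a description of the window and not of binding.

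Other genes of the same handling were taken as 3 lists without the 4 members. Of 18 further organic anion transporter genes 6 were tested in sorted ECs. The 1 called between WT cerebellum and AP ECs was Slco2a1, a prostaglandin transporter, which went the other way, with 6.51 and 5.45 CPM in cerebellum and 169 and 167 CPM in AP (log2 -4.81 ± 0.85, adjusted p = 0.00407). It was also lower in cerebellum than in PP (-4.66 ± 0.85, adjusted p = 0.00594). Of all genes, 2.25% were lower in cerebellum than in AP and 2.09% lower than in PP. No gene of this list was called for stabilized against WT in any of these tissues. Of all genes, 0.458% were called in either direction in AP, 1.82% in PP and 0.648% in cerebellum. The list medians were 2.27 in AP, 3.40 in PP and -0.31 in cerebellum, against 0.06, 0.01 and -0.08 for all genes. These medians include genes at or near 0 in pituitary ECs, whose fitted values depend on edgeR's prior count, such as Slco1a6 at 0 and 0.117 CPM in WT and 1.68 and 0.0923 CPM in stabilized PP ECs. The abundant Slco2a1 gave 158 and 142 CPM in WT and 168 and 242 CPM in stabilized PP ECs and 169 and 167 against 125 and 168 CPM in AP ECs. Slco3a1 gave 31.8 and 40.7 CPM in WT and 15.6 and 29.6 CPM in stabilized PP ECs. In AP ECs it gave 3.48 and 6.28 CPM in WT and 10.3 and 7.97 CPM in stabilized libraries.

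The thyroid hormone list held 15 genes, 12 tested. Slc7a5, the large neutral amino acid transporter LAT1, was higher in WT cerebellum than in AP (1120.1 and 1546 against 79.5 and 84.4 CPM; log2 4.03 ± 1.02, adjusted p = 0.0377) and PP ECs (7.41 ± 1.19, adjusted p = 0.00255). Slc3a2, its partner chain, was higher in the PP comparison (1.14 ± 0.25, adjusted p = 0.0204). Of all genes, 3.0% were higher in the AP and 2.3% in the PP comparison. In stabilized PP ECs Slc7a5 rose to 513 and 576 from 15.1 and 0.234 CPM (6.10 ± 1.13, adjusted p = 0.0191) and Slc7a8, the related transporter LAT2, to 55.7 and 73.1 from 0.45 and 0 CPM (adjusted p = 0.0338). Of all genes, 1.26% were higher in stabilized PP ECs. None of the 12 was called in stabilized AP or cerebellum ECs, where 0.458% and 0.648% of all genes were called in either direction. The medians of the list were 1.42 in PP, 0.25 in AP and 0.16 in cerebellum.

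The efflux list held 8 genes, 7 tested. Abcb1a, the drug efflux pump P-glycoprotein, was higher in WT cerebellum than in either lobe (4.14 ± 0.38 and 3.43 ± 0.37) and rose in stabilized AP (2.08 ± 0.35, adjusted p = 0.0211; 1.51, adjusted p = 0.014, without the library of conflicting labels) and PP ECs (2.08 ± 0.35, adjusted p = 0.0116). Abcg2, the pump BCRP, rose in PP ECs (1.18 ± 0.25, adjusted p = 0.037). Shares of all genes that rose were 0.441% in AP and 1.26% in PP ECs. Abcc4, an organic anion efflux pump, was higher in WT cerebellum than in AP (3.41 ± 0.33) and PP (1.58 ± 0.31) and was not called after stabilization. Shares of all genes higher in WT cerebellum were 3.0% against AP and 2.3% against PP. The list medians were 0.74 in AP and 0.06 in PP. In bound RNA of stabilized CP Slc7a5 (5.41 ± 0.39, adjusted p = 0.00124), Slc3a2 (2.01 ± 0.29, adjusted p = 0.0156), Abcb1a (3.04 ± 0.38, adjusted p = 0.00827) and Abcg2 (2.17 ± 0.30, adjusted p = 0.012) rose, as did 0.656% of all genes. In bound RNA of stabilized cortex Slc7a5 (1.81 ± 0.33) and the hormone-responsive gene Hr (2.22 ± 0.40) were higher and Dio2, which activates thyroxine, lower (-1.94 ± 0.48, adjusted p = 0.0447). There, 3.64% of all genes were higher and 2.67% lower. Astrocyte markers summed to 933 and 1482 CPM in these stabilized libraries against 2397 and 4131 CPM in WT, and neuronal markers to 1065 and 1039 against 2025 and 2821 CPM. Their part in the Dio2 value was not tested.

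Genes of the most similar pattern were ranked by Pearson correlation of log2(mean TPM + 1) over the 20 RNA groups, among 12706 genes. These r are descriptions over groups that share tissues and library composition. Slco1c1 was nearest to Slc22a8 itself (r = 0.929), Flvcr2 (0.906) and Igsf5 (0.899), and Slc22a8 to Foxq1 (0.972), Srarp (0.945) and Slc38a5 (0.942). Slco1a4 was nearest to Lef1, a transcriptional partner and target of beta-catenin (0.957), Paqr5 (0.944) and Fn1 (0.919). Slco2b1 was nearest to Vwa1 (0.936), Akap12 (0.918) and Rgs12 (0.913), and its r with Slco1c1 was 0.588, the lowest between any pair of the 4 genes.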

How the data were processed

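The authors quantified RNA reads against Ensembl 92 transcripts of GRCm38 with Salmon 0.10.2 and deposited estimated counts and TPM per transcript. ATAC-seq peaks were called in each library with MACS2 2.1.1.20160309 after Bowtie2 2.3.2, and the deposited peak lists give fold enrichment and −log10 q. The deposited lists also hold a whole-number score that MACS2 derived from q, not used here. Reads were single-end from amplified cDNA without molecular identifiers, so counting intervals cover counting error only. Here, counts and TPM were summed to genes, counts were rounded, and edgeR 4.0.16 (quasi-likelihood, TMM, filterByExpr) was fitted with 1 coefficient per group to the 12 GFP-positive, the 12 GFP-negative, all 24 sorted, the 8 bound, the 8 input or all 16 RiboTag libraries. Calls needed an adjusted p under 0.05, over all genes tested, together with at least 2-fold. Standard errors were derived from each edgeR test, as the absolute log2 value divided by the square root of its F statistic. Fitted log2 values of genes with 12 or fewer counts in a group depend on edgeR's prior count, so the ratio of summed counts with its exact conditional binomial 95% interval is given instead for differences between 2 groups. Peaks were kept at fold enrichment over 2 and −log10 q over 2, as the authors did, and merged at 1 base of overlap. The text names the members, list genes called in a comparison, the 3 most similar genes and peaks at promoters or with a change. Some listed results and sequences are not reported here. Members and lists were chosen with earlier results of these data known. Transcripts absent from the annotation used to name genes held 0.0642% to 0.395% of a library's counts and were left out. A simulation of 200 4-fold changes was recovered at 31% for stabilized against WT PP ECs (17900 genes, 4 false calls) and 49.5% for bound RNA of CP (16764 genes, 9 false calls). The changed genes were drawn above a minimum mean CPM, and all groups shared the mean of all libraries before the change. Genes near 0 in a group were therefore not covered. Alternatives were DESeq2 1.42.0, RLE scaling, no filter, a replicate block, a length offset, only the groups compared, leaving out each library, and other peak settings; leaving out ATAC-seq libraries, and stabilized AP libraries for Abcb1a, was added after seeing the data.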

Additional observations from a re-analysis of the deposited data

Results flagged for a closer look

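The response of Slc22a8 to stabilized beta-catenin differed between posterior and anterior pituitary ECs by a test of the difference itself: the log2 changes differed by 8.80 ± 0.82 (adjusted p = 0.00186, edgeR). Both stabilized PP libraries (68.8 and 58.2 CPM) lay above both WT libraries (0.36 and 0 CPM), and both stabilized AP libraries (6.51 and 3.28 CPM) lay below both WT libraries (7.5 and 8.08 CPM). The labels of stabilized AP replicate 2, the lower of that pair, conflict, and without it the difference was 8.41. The fitted size rests on 12 and 0 counts in WT PP ECs: it was 8.09 without WT PP replicate 2 and has no size without replicate 1, which held all 12.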

How the results depend on the processing

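Among 735 values of 116 RNA results recomputed under the alternatives, 685 kept their direction and side of the threshold, 20 lost a call, 21 gained one and 9 changed sign. With a length offset, calls were lost for Slco1a4 (2.77) and Slco2b1 (2.07) in WT PP over AP ECs, Slco1a4 in stabilized PP (-1.5) and Slco2b1 in stabilized AP (-2.1) against WT cerebellum ECs. Its log2 values were 0.61 for Slco2b1 in WT cerebellum over PP ECs, 3.47 and 3.09 for the rise of Slco1a4 in AP and PP ECs and 1.83 in CP bound RNA, none called, and they changed sign without a call for Slco1c1 in stabilized cerebellum ECs (-0.16), Slco2b1 in stabilized PP ECs (-2.76), Slco1a4 in WT CP bound over input (-0.10) and the CP minus cortex response of Slco1c1 (0.22) and Slco2b1 (-0.16). With only the groups compared, calls were lost for Slco1c1 (7.39) and Slco1a4 (4.40) in stabilized AP ECs, for Slco1c1 in WT cortex over CP bound RNA (1.07), for all 4 genes in WT PP over AP ECs, and over GFP-negative cells for Slco1c1 and Slco1a4 in WT AP and Slco2b1 in WT PP and stabilized cerebellum ECs. Slco2b1 was called over GFP-negative cells in WT cerebellum, stabilized AP and stabilized PP ECs, and uncalled values changed sign for Slco1c1 in cortex (0.03) and Slc22a8 in CP (0.05) bound RNA. Without the filter on low counts, 8 further values over GFP-negative cells were called, and the responses of Slco2b1 in AP ECs (2.0), of Slco2b1 between lobes (-1.92) and of Slco1a4 between CP and cortex (1.56) were called, Slco1c1 in WT cortex over CP bound RNA fell short of 2-fold (0.98) and Slco1a4 in WT CP bound over input was -0.05. DESeq2 called Slco2b1 in stabilized AP ECs (2.0) and the Slco1a4 response between CP and cortex (1.60), as well as Slco2b1 in WT cerebellum (3.63) and stabilized AP (3.07) ECs over GFP-negative cells and Slco1a4 in stabilized PP GFP-negative cells (3.99). The cause of these changes was not tested.

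Bound and input RNA come from the same homogenates, GFP-positive and GFP-negative cells from the same dissociated tissue and the lobes from the same pituitaries. The labels do not say that the replicate number marks this. Deviations of same-numbered libraries correlated at 0.048 to 0.144 between bound and input RNA and at -0.211 to 0.091 elsewhere. A replicate block called Slco2b1 in stabilized AP ECs (1.98, adjusted p = 0.0196), a block within each preparation called Slco2b1 in WT cerebellum ECs over GFP-negative cells (3.65, adjusted p = 0.0493), and the former turned the uncalled Slco1c1 value of stabilized cortex bound RNA to 0.04. Neither changed another call.

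Of 496 values without 1 library, 456 kept direction and call, 10 lost a call, 8 gained one and 22 changed sign. The values for stabilized over WT ran from 1.48 to 2.44 for Slco2b1 in AP ECs, from -0.14 to 0.29 for Slco2b1 in PP ECs, from -0.41 to 0.58 for Slco1c1 and 0.20 to 1.14 for Slco1a4 in cortex bound RNA, from 2.01 to 2.34 for Slco1a4 and -0.18 to 0.16 for Slc22a8 in CP bound RNA and from -0.53 to 0.23 for Slc22a8 in cortex input. Responses of PP minus AP ran from -2.69 to 0.22 for Slco1c1, -1.17 to 0.49 for Slco1a4 and -2.36 to -1.40 for Slco2b1. Those of CP minus cortex ran from -1.45 to -0.37 for Slco1c1, 0.99 to 2.01 for Slco1a4 and -0.35 to 0.62 for Slco2b1. In GFP-negative cells the ranges were -2.09 to 1.0 for Slco1c1, -2.44 to 0.01 for Slco2b1 and -2.49 to 0.22 for Slc22a8 in cerebellum, -3.05 to 2.09 for Slco1c1 and -4.24 to 7.02 for Slc22a8 in AP and -1.65 to 7.2 for Slc22a8 in PP. Values against a group left with few or no counts, as in several of these pituitary comparisons, depend on edgeR's prior count. Slc22a8 in WT PP ECs over GFP-negative cells ran from -4.88 to 5.67, Slco1a4 in bound over input RNA of WT CP from -0.16 to 0.12, Slc22a8 in that of stabilized CP from -0.46 to 0.03 and Slco1c1 in WT cortex over CP bound RNA from 0.50 to 1.46.

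Counts of peaks moved more than expression. Where a peak in either replicate sufficed, 7 regions were gained and 2 lost in AP and 13 gained in PP. With fold enrichment over 4 and −log10 q over 5, 3 were gained in PP and 0 lost in cerebellum, and within 100 kb 8 were gained in PP. Without 1 library, gained regions numbered 4 to 7 in cerebellum, 3 to 6 in AP and 5 to 12 in PP, and lost regions 0 to 2 in AP.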
